A study of Mus musculus with 8 samples.

Results

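The core circadian clock is a set of 10 genes in these data: the activators *Arntl* (also called Bmal1), *Clock* and *Npas2*, the repressors *Per1*, *Per2*, *Per3*, *Cry1* and *Cry2*, and the nuclear receptors *Nr1d1* and *Nr1d2* (the Rev-erb receptors). They were found on the array by gene symbol, and 18 of the 41174 distinct probes belong to them. The genes were singled out with the log2 ratios of the 2 array slides already in view, so every value by slide below is a description and was not tested. RNA came from the whole pancreas of 8 female NOD mice aged 12 weeks, of the NOD/LtJ strain in which T cells destroy the beta cells of the islets. Each mouse was labeled red (Cy5) on its own two-color array, against green (Cy3) RNA from 1 pool of 8 age-matched female NOD.B10 mice (NOD.B10Sn-H2b/J), which share the NOD background but carry another H2 haplotype and do not become diabetic. Mice 1 to 4 were on slide 1 and mice 5 to 8 on slide 2, a split that the barcodes in the array files give and that is not a study group. The sources differ on whether the mice were bred in house or purchased. The pool has no replicates, the dyes were not exchanged, and the hour of the day at which tissue was taken is not given in the sources used here. A dye effect at a probe and a strain difference therefore cannot be told apart.

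In mammalian cells ARNTL pairs with CLOCK or NPAS2 on E-box motifs and switches on the *Per* and *Cry* genes and *Nr1d1* and *Nr1d2*. The PER and CRY proteins then block that pair, while the REV-ERB proteins repress *Arntl* through RORE motifs, so the mRNAs of *Arntl* and of *Nr1d1* peak at opposite times of day in many tissues. The pancreas has such clocks in both acinar and islet cells, and their phase follows feeding. In whole tissue, fewer cells of a type and less RNA per cell cannot be told apart.

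The sequences around the transcription starts show which clock motifs lie near the genes described below. RefSeq windows on GRCm38.p6, from 250 bases before to 50 bases after a start, were matched by symbol for 9 of the 10 genes, all but *Per2*. They were searched on both strands for the E-box CACGTG, its variant CACGTT, the cAMP response element TGACGTCA, the D-box TTANGTAA and the ROREs TAGGTCA and TGGGTCA. The 4 upstream windows shown belong to genes with a probe whose values separated the slides, and no GENCODE exon lies in them. Capitals mark a motif, and a motif on the opposite strand appears as its reverse complement. They lie at chr7:113207215-113207464 (plus strand) for *Arntl*, chr11:98775378-98775627 (minus) for *Nr1d1*, chr4:151044666-151044915 (minus) for *Per3* and chr2:92434070-92434319 (minus) for *Cry2*.
Arntl: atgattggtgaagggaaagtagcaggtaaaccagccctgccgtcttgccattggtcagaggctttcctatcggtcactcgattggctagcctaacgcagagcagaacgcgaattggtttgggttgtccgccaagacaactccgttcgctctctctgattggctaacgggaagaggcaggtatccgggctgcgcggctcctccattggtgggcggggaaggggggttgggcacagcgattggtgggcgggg
Nr1d1: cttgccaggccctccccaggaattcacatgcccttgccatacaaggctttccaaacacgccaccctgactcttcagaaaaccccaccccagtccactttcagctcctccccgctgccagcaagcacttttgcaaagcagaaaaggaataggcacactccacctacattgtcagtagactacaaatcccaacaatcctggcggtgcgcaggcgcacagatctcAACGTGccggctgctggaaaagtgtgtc
Per3: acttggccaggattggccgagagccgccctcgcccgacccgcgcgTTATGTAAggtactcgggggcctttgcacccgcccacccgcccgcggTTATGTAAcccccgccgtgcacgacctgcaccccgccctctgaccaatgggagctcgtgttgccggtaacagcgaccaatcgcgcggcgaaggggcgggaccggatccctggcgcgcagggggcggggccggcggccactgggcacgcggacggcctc
Cry2: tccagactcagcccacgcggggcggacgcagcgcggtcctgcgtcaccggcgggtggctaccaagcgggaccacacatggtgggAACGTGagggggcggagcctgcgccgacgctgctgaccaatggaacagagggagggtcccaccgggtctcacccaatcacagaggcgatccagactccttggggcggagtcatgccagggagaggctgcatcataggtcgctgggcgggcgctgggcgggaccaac

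*Per3* has 2 D-boxes, the element bound by DBP, TEF and NFIL3, which 2.32% of all 32851 windows hold at least once. *Nr1d1*, *Cry2* and *Cry1* each have 1 E-box variant, found in 4.68% of windows, and *Arntl* has none of the motifs upstream. A second *Arntl* window has a RORE 30 bases after its start, a motif that 2.61% of windows hold. The E-box CACGTG was found in the windows of *Per1* and *Cry1* and in 7.15% of all windows. These 3 sites are shown as short stretches because annotated exons overlap their windows, at chr7:113207531-113207557 (plus), chr11:69098773-69098798 (plus) and chr10:85185099-85185124 (minus) of the same build.
Arntl RORE: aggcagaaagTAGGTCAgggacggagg
Per1 E-box: cacccaagtcCACGTGcagggatgtg
Cry1 E-box: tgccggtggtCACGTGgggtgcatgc

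A match of letters is not a measured binding site, and the windows of *Clock*, *Npas2* and *Nr1d2* held none of the motifs.

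Between the slides, 3 of the 18 clock probes were lower and 4 higher on slide 2 without overlap, beside 5.34% and 5.39% of all probes with a symbol, and 11 overlapped. In the 4 mice of slide 2, *Arntl*, 1 of 4 *Clock* probes and 1 of 2 *Cry2* probes were lower relative to the pool than in the 4 mice of slide 1, and *Nr1d2*, *Per3*, 1 of 3 *Nr1d1* probes and the other *Cry2* probe were higher. *Per1* and *Per2* overlapped between the slides. *Per3*, *Cry1* and *Npas2* had red signal well above background on no array, so the direction of *Per3* is read at signals near the background. Values are log2 ratios of the NOD mouse over the pool, or the same ratio as a percent of the pool, in which 100% means equal signal. Each dye was also read with the software's flag for signal well above background, and where a spot was not above its background the software entered a stand-in value. Levels of different probes are not compared, since a signal depends on the probe. Of the 18 probes, red signal was well above background on all 8 arrays for 2, on some arrays for 9 and on none for 7, while green was well above background on all 8 for 13. Positions of probes are on the files' build, mm8.

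**Figure D1:**
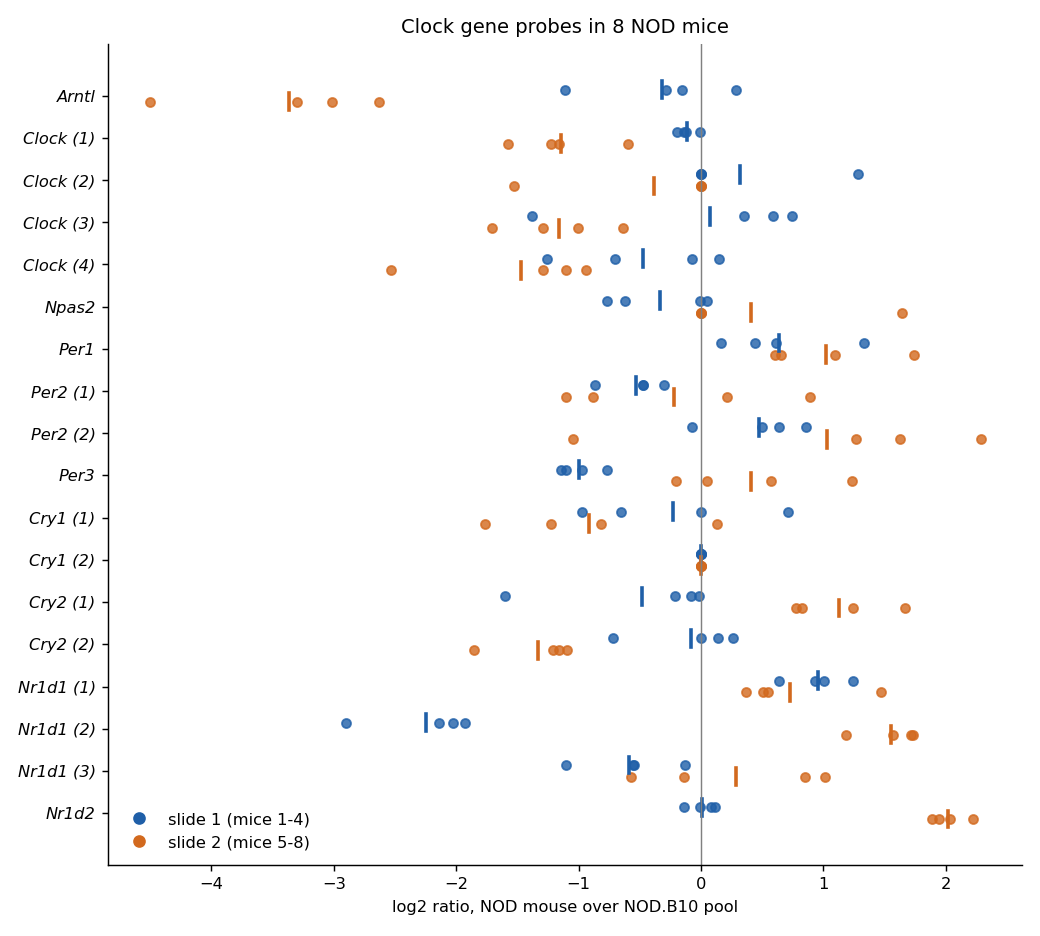
Log2 ratio over the pool of each of the 18 clock gene probes (rows, numbered within a gene from the brightest) in each of 8 NOD mice, with slide 1 in blue, slide 2 in orange and short bars for the slide means. The points of *Arntl* and *Nr1d2* separate completely in opposite directions, those of *Per1* overlap, and the 3 *Nr1d1* rows differ from one another.

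*Arntl*, the activator without which the clock stops, has 1 probe (A_52_P267651, chr7:113104645-113104704). The mice of slide 1 were at 89.8%, 81.9%, 122% and 46.3% of the pool, and the mice of slide 2 at 16.2%, 4.41%, 10.1% and 12.3%. The groups did not overlap, and the gap between the lowest mouse of slide 1 and the highest of slide 2 was 1.52 on the log2 scale. The mean log2 ratio was -0.32 ± 0.58 (SD, n = 4) on slide 1 and -3.36 ± 0.81 on slide 2, a difference of -3.05. This is an 8.26-fold lower mean ratio. Red signal was well above background on all 4 arrays of slide 1 and on none of slide 2, where 3 of 4 values are stand-ins, so the size of the drop follows the red background. Before scaling, the background-subtracted red signal was 12.8 to 45.8 on slide 1 and 0.537 to 2.46 on slide 2, beside an SD of 1.33 to 1.62 among negative control spots on slide 2. Green signal of the pool stayed at 452 to 708 over all 8 arrays, with a slide difference of -0.10 (log2).

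*Clock*, the partner of ARNTL, has 4 probes. The brightest (A_52_P334670, chr5:77287127-77287186) was at 91.7%, 99.6%, 90.9% and 87.3% of the pool on slide 1 and at 42.7%, 66.3%, 33.5% and 44.8% on slide 2. The mice of slide 1 lay close together and every mouse of slide 2 was below them, with means of -0.12 ± 0.08 and -1.14 ± 0.41 and a difference of -1.02. The highest mouse of slide 2 was mouse 6, whose background-subtracted red signal of 44.3 lay within the 37.2 to 54.8 of slide 1. The red signal alone, without the pool, therefore overlapped between the slides for this probe. The other 3 probes had differences of -0.997 (A_52_P334677), -1.23 (A_52_P279391) and -0.70 (A_52_P161365), all with overlap between the slides. Red was well above background on 4 arrays for the first and on 0 for the other two, and 7 of 8 red values of the last were stand-ins.

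*Npas2*, which can replace CLOCK, was at 103%, 58.8%, 99.6% and 65.1% of the pool on slide 1 and at 313%, 100%, 100% and 100% on slide 2. The last 3 ratios are exactly 0 on the log scale, as the software sets them where a stand-in prevents a ratio. Red signal was well above background on no array and 6 of 8 red values were stand-ins, so a change in *Npas2* was not detectable here.

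Among the repressors, *Per1*, an immediate target of E-boxes that also responds to hormones and cAMP, was above the pool in 8 of 8 mice, with red signal well above background on all 8 arrays. Its probe (A_52_P79889, chr11:68925571-68925630) gave 112%, 153%, 136% and 252% on slide 1 and 152%, 335%, 158% and 214% on slide 2. The slides overlapped, with means of 0.64 ± 0.50 and 1.03 ± 0.53 and a difference of 0.39. Mouse 6 was highest and mouse 4 the next, so that the spread lay within both slides. Background-subtracted red signals of 65.1 in mouse 2 and 66.8 in mouse 4 became processed signals of 1127 and 2192. The part of this scaling in the place of mouse 4 was not tested.

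*Per2* has 2 probes that did not rank the mice alike. The brighter (A_52_P536869) ranged from 54.8% to 81.1% of the pool on slide 1 and was at 116%, 46.6%, 54.2% and 186% on slide 2. The other (A_51_P282760) ranged from 95.0% to 181% on slide 1 and was at 489%, 308%, 241% and 48.5% on slide 2. Mouse 8 was the highest of all 8 at the first probe and the lowest of all 8 at the second. The first had red well above background on 1 array and the second on 2.

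*Per3*, a period gene with a strong daily rhythm in many organs (A_51_P258493, chr4:149848947-149849006), was at 51.0%, 45.2%, 58.7% and 46.6% of the pool on slide 1 and at 149%, 236%, 103% and 87.0% on slide 2. The slides did not overlap, with means of -0.996 ± 0.17 and 0.41 ± 0.64 and a difference of 1.41. Red signal was well above background on no array, so the direction is described at signals near the background. The background-subtracted red signal ran from -0.334 to 2.11 on slide 1 and from 2.28 to 6.79 on slide 2.

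*Cry1*, the cryptochrome that closes the loop late in the cycle, was not measurable. One of its 2 probes had a log ratio of exactly 0 on all 8 arrays with stand-ins in both dyes, and the other ranged from 51.0% to 164% of the pool on slide 1 and from 29.5% to 110% on slide 2, with red well above background on none. *Cry2* has 2 probes that went in opposite directions. The brighter (A_52_P248378, chr2:92205045-92205104) was at 94.5%, 86.2%, 33.0% and 98.7% of the pool on slide 1 and at 177%, 317%, 237% and 172% on slide 2. All 4 mice of slide 1 were below the pool and all 4 of slide 2 above it, and the difference of the means was 1.61. Its red signal was well above background on the 4 arrays of slide 2 and on none of slide 1. The weaker probe (A_51_P135542) was lower on slide 2 without overlap, by 1.25 on the log2 scale, with red well above background on no array and 4 stand-ins. Its direction was not held: the difference was -0.08 with median-centered signals and 0.031 with normexp and loess.

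*Nr1d2*, a repressor of *Arntl*, separated the slides with red signal well above background on all 8 arrays (A_52_P303891, chr14:16997805-16997864). The mice of slide 1 were at 108%, 90.9%, 99.3% and 106% of the pool, all close to equal signal. The mice of slide 2 were at 384%, 467%, 369% and 410%. The means were 0.01 ± 0.11 and 2.02 ± 0.15, and the difference of 2.01 is a 4.03-fold higher mean ratio with a gap of 1.77 between the slides. Only 5 of the 7388 probes with red signal well above background on all 8 arrays, this one included, had a difference as high. The background-subtracted red signal rose less, from 13.8 to 19.9 on slide 1 to 21.3 to 62.6 on slide 2. Over spots well above background, the software multiplied red signals by a median of 17.7 to 24.4 on slide 1 and of 16.9 to 39.7 on slide 2. At this probe the highest background-subtracted red of slide 1 was 19.9, in mouse 3, and the lowest of slide 2 was 21.3, in mouse 7. Their processed signals were 340 and 1040. The part of such scaling in the difference was not tested. With background-subtracted signals that had a floor at the SD of negative controls and were centered on each array's median ratio (median-centered signals), the difference was 1.40. With the deposited ratios centered alone it was 2.01, and with normexp background correction and loess 0.53.

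*Nr1d1*, the close relative of *Nr1d2* and a main repressor of *Arntl*, has 3 probes along the gene that did not agree on the slides. At A_51_P223776 (chr11:98585302-98585804) the mice of slide 1 were at 26.2%, 24.6%, 22.7% and 13.4% of the pool and those of slide 2 at 297%, 329%, 333% and 227%. The difference was 3.80, a 13.9-fold higher mean ratio, and 0.50 with normexp background correction and loess. Red signal was well above background on the 4 arrays of slide 2 and on none of slide 1, where 2 values are stand-ins, so the level on slide 1 follows the background. At the brightest probe (A_52_P130961, chr11:98588628-98588687) all 8 mice were above the pool, at 129% to 277%, and the slides overlapped with a difference of -0.23. At A_52_P130952 (chr11:98588108-98588167) the slides also overlapped, with a difference of 0.87. Red was well above background at these probes on 3 arrays and on 1. In GENCODE on GRCm38, the end of *Nr1d1* overlaps *Thra*, a thyroid hormone receptor gene on the opposite strand, by 1075 bases. All 41014 bases of *Per3* lie within *Camta1* on the same strand there. No probe was placed against these overlaps because the builds differ.

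**Figure D2:**
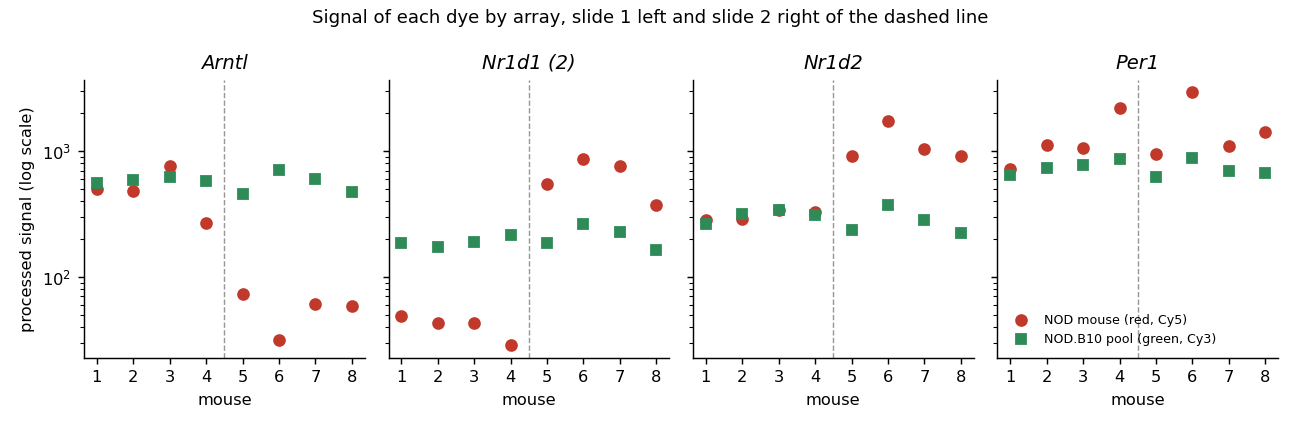
Processed signal (log scale) of the NOD mouse (red circles) and the NOD.B10 pool (green squares) on each of the 8 arrays for *Arntl*, *Nr1d1* at probe A_51_P223776, *Nr1d2* and *Per1*, with a dashed line between slide 1 and slide 2. The green pool stays level (452 to 708 for *Arntl* and 225 to 372 for *Nr1d2*), and the red signal steps down for *Arntl* and up for *Nr1d1* and *Nr1d2* at the line.

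Read within each mouse, *Nr1d2* and *Arntl* moved apart on slide 2. The log2 ratio of *Nr1d2* minus that of *Arntl* was 0.27, 0.15, -0.30 and 1.20 in mice 1 to 4. It was 4.57, 6.73, 5.19 and 5.05 in mice 5 to 8. The slides could not overlap here, since the 2 genes each separated them in opposite directions, so this adds nothing to the values of each gene. The highest value of slide 1 was that of mouse 4, which had the lowest *Arntl* on that slide. Because *Arntl* is at the background on slide 2, these differences are not exact sizes.

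Over all member probes, 3 of 18 were lower on slide 2 with no overlap (*Arntl*, the brightest *Clock* probe and the weaker *Cry2* probe), and 4 of 18 were higher (*Nr1d1* at 1 probe, *Nr1d2*, *Per3* and the brighter *Cry2* probe). Among all 34850 probes with a symbol, 5.34% were lower and 5.39% higher in the same way, and the genes were chosen on this contrast, so nothing is read from the excess. With 1 probe per gene, 2 of 10 clock genes were lower and 3 higher, beside 6.14% and 6.42% of all 21597 symbols. Among probes with red well above background on all 8 arrays the shares were 11.6% lower and 13.4% higher, and of the clock probes *Per1* and *Nr1d2* belong to that set. The median size of the slide difference was 0.93 over the 18 probes and 0.28 over all probes with a symbol. Without mouse 1 the number of lower probes was 5, since 2 further *Clock* probes no longer overlapped, beside 7.04% of all probes. The number of higher probes was then 5, beside 7.5%. With normexp background correction and loess in place of the deposited ratio, 0 probes were lower and 3 higher without overlap. The shares of all probes were 5.18% and 5.36%, and *Arntl* and *Clock* then overlapped between the slides. The differences were then -0.40 for *Arntl*, -0.35 for the brightest *Clock* probe, 0.56 for the brighter *Cry2* probe and 0.048 for *Per3*. Without the arrays with a poorly rated grid, that of *Per3* was 0.80.

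The pool is the same RNA on every array, so its green signal was compared by slide too. At the 18 clock probes the green slide difference ran from -0.17 to 0.62 on the log2 scale. The red difference ran from -3.14 at *Arntl* to 3.92 at *Nr1d1*, both with red near the background on 1 slide. At *Nr1d2*, with red well above background on all 8 arrays, red differed by 1.84 and green by -0.17. The highest green difference was at the brightest *Nr1d1* probe, where red differed by 0.39. The slide, the mice it held and the scan cannot be told apart in the red signal. The share of spots with red well above background was 30.1% to 35.3% on slide 1 and 21.6% to 33.9% on slide 2, and 3 arrays, those of mice 5, 6 and 7, had a grid that was not rated good. The array of mouse 8 had a grid rated good but the lowest share of spots with red well above background, 21.6%. There *Nr1d2* was at 410% of the pool, *Per3* at 87.0% and *Arntl* at 12.3%. That *Arntl* value comes from a background-subtracted red signal of 0.537, under the negative control SD of 1.33. The part of the grid rating in the slide differences was not tested.

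The comparison the study was built for is NOD against NOD.B10, and here no clock gene was called different. The mean log2 ratio over the 8 mice was tested against 0 with limma's moderated one-sample test, adjusted by Benjamini-Hochberg over all 28105 probes with enough red signal, and calls were set at an adjusted p under 0.01 with a 2-fold change or more. Of the 18 clock probes 16 entered the test and 0 were called, where 1.72% of all tested probes were. With a share that small, 0 of 16 says little about the clock genes. At an unadjusted p under 0.05 there were 7 of 16, beside 33.8% of all tested probes, and the median mean log2 ratio was -0.32 for the clock probes and -0.09 for all. The lowest adjusted p was that of the Rev-erb receptor *Nr1d1*. Its brightest probe, with red well above background on 3 of 8 arrays, averaged 0.84 (limma SE 0.13), a 1.79-fold higher level in NOD with an adjusted p of 0.00548 in limma and the same direction in 8 of 8 mice, under the 2-fold minimum. Over all alternatives that p ran from 0.00168 to 0.218, and the mean was 0.38 with median-centered signals and 0.10 with normexp and loess. Its other probes averaged -0.35 and -0.15, so the gene's direction depends on the probe. *Per1* averaged 0.83 (SE 0.17, 1.78-fold) with a limma adjusted p of 0.0161 (0.00303 to 0.0424 over all alternatives), again above the pool in 8 of 8 mice. Within the slides its means were 0.64 and 1.03. The *Clock* probe A_52_P334677 averaged -0.97 (SE 0.28, 1.96-fold) with a limma adjusted p of 0.0468 (0.0165 to 0.325 over all alternatives) and was below the pool in 7 of 8 mice. With median-centered signals it averaged -0.48, and with normexp and loess -0.045, where *Per1* averaged 0.49. Genes of other cell types were read in the same comparison. The median mean log2 ratio was 1.08 over 11 leukocyte genes, -0.61 over 7 islet genes, -0.79 over 6 adipocyte genes and 0.05 over 9 acinar genes, with 0 called in each. It was -2.31 over 7 liver genes, of which 5 were called lower, 3 of them with red well above background on no array. The part of these genes in the clock differences from the pool was not tested.

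For the genes that separated the slides, the average over 8 mice describes neither slide. *Arntl* averaged -1.84 (SE 0.59) with a limma adjusted p of 0.0654, from -0.32 on slide 1 and -3.36 on slide 2, and was below the pool in 7 of 8 mice. *Nr1d2* averaged 1.02 (SE 0.36) with a limma adjusted p of 0.0903, from 0.01 and 2.02. With slide as a term in the model, which removes the slide difference from the error, both passed the call with limma adjusted p of 0.00316 and 0.000184. Of all tested probes, 2% were called with that term. The genes were chosen on the slide contrast that it removes, so nothing is read from these 2 calls. Over all alternatives the limma adjusted p ran from 0.00316 to 0.134 for *Arntl* and from 0.000184 to 0.178 for *Nr1d2*. With normexp and loess the means were -0.38 and 0.26. The brightest *Clock* probe averaged -0.63 (SE 0.21), below the pool in 8 of 8 mice, with a limma adjusted p of 0.0704. *Per3* and the brighter *Cry2* probe averaged -0.29 and 0.33, each with means of opposite sign on the slides.

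**Figure D3:**
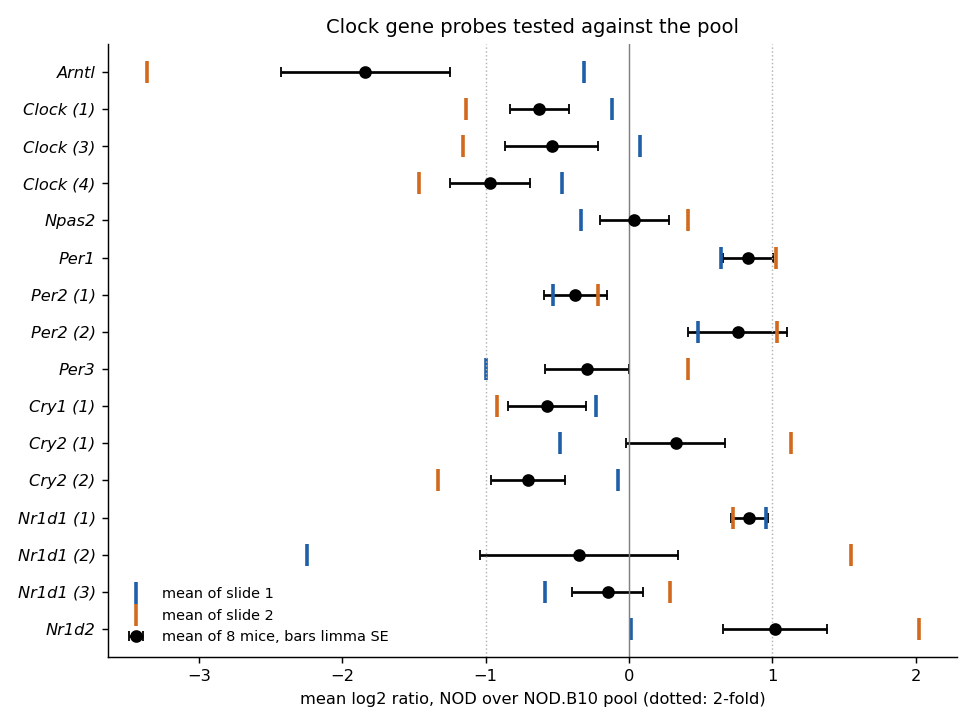
Mean log2 ratio of NOD over the pool for the 16 clock probes tested (black points, bars are the limma SE, 8 mice), with the mean of slide 1 in blue, the mean of slide 2 in orange and dotted lines at 2-fold. *Per1* and the brightest *Nr1d1* probe have both slide means above 0, whereas those of *Arntl* and *Nr1d2* lie far apart.

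*Npas2*, *Per3* and *Cry1* are given no place in an order of the means over the 8 mice, since their brightest probes had red well above background on no array. Of the rest, 1 probe per gene, *Nr1d2* was highest (1.02), then *Nr1d1* (0.84), *Per1* (0.83), *Cry2* (0.33), *Per2* (-0.37), *Clock* (-0.63) and *Arntl* (-1.84). The order differs by slide: on slide 1 *Nr1d2* (0.01) was under *Nr1d1* (0.95) and *Per1* (0.64), and *Arntl* (-0.32) was above *Cry2* (-0.48). It also depends on the processing. *Per1* was above *Nr1d2* with median-centered signals (0.89 and 0.71) and with normexp and loess (0.49 and 0.26). *Per2* and *Cry2* averaged 0.76 and -0.70 at their other probes, so their places depend on the probe, and *Per2* had red well above background on 1 array at the probe used. Neighbours in this order overlapped in their values over the mice, and for all but *Nr1d2* and *Per1* some of the values had red signal that was not well above background. These are differences from the pool and not levels of the genes.

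Other clock genes were read from 3 lists: regulators of a secondary loop, enzymes that mark clock proteins for turnover, and output genes. Of their 23 genes 22 were tested against the pool, and limma called 0 by the same rule and gave 9 an unadjusted p under 0.05, a share near the 33.8% of all tested probes. By slide, with 6.14% of all symbols lower and 6.42% higher without overlap, the output list had 3 of 7 genes higher on slide 2 without overlap and 0 lower, with a median difference of 0.05. They are *Dbp* and *Tef*, D-box activators driven by the clock, and *Usp2*, a rhythmic ubiquitin protease. *Dbp* was at log2 ratios of -0.59 to 0.06 on slide 1 and 3.33 to 3.37 on slide 2, a difference of 3.58. Its green signal, from the same pool RNA on every array, was 1393 to 1651 on slide 1 and 4882 to 6439 on slide 2, so both dyes moved at that probe. *Tef* differed by 2.59 with red signal well above background on all 8 arrays and a green difference of -0.05, and *Usp2* differed by 2.47, with red well above background on 1 array of slide 1 and 4 of slide 2. The other 3 *Tef* probes and the other *Usp2* probe overlapped between the slides.

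In the secondary loop, beside the same shares of all symbols, 1 of 8 genes was lower on slide 2 and 2 were higher, with a median difference of -0.15. *Nfil3*, a repressor at the same D-boxes, was at log2 ratios of 1.27, 1.13, 1.11 and 1.08 on slide 1 and -2.82, -2.31, -2.14 and -3.26 on slide 2. It lay above the pool on slide 1 and below it on slide 2, and its second probe differed by -3.22. Red was well above background on all 4 arrays of slide 1 at both probes but on slide 2 on 1 and on 0, where the second has 4 stand-ins, so these differences are not exact sizes. *Bhlhe40*, a repressor at E-boxes, differed by 0.61. *Timeless* counts as higher only through ratios of exactly 0 that the software set for 3 of the 4 mice of slide 2, and its red signal was well above background on no array. Among 8 kinases, ubiquitin ligases and CLOCK partners, *Csnk1d*, a kinase of PER proteins, had a difference of -0.25 without overlap and 7 overlapped, with a median of -0.00192.

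**Figure D4:**
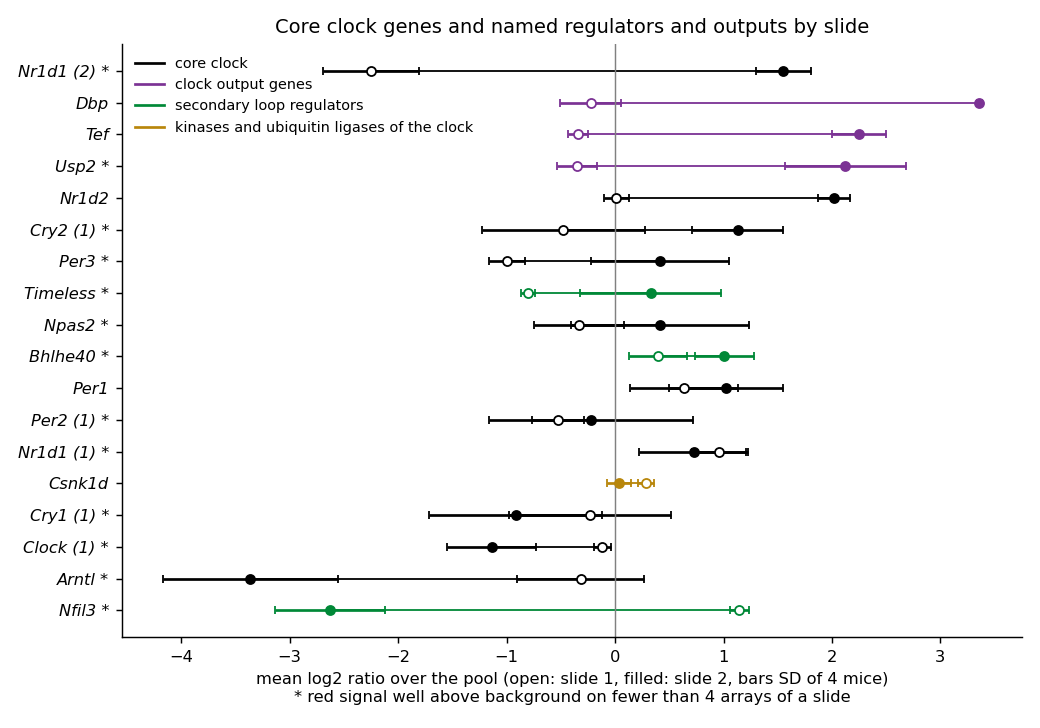
Mean log2 ratio over the pool on slide 1 (open) and slide 2 (filled) with the SD of 4 mice, for the core clock genes at their brightest probe, *Nr1d1* also at probe A_51_P223776, and the named genes of 3 other clock lists, sorted by the slide difference. An asterisk marks probes with red well above background on fewer than 4 arrays of a slide, whose differences and places are not exact (*Arntl*, *Nfil3* and *Nr1d1* at its second probe among them). *Nr1d2* and *Tef*, without an asterisk, differ by 2.01 and 2.59.

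Genes of other cell types and of stress responses were checked for movement with the slides, 1 probe per gene, beside the 6.42% of all symbols that were higher without overlap and the 6.14% that were lower. A single gene says little about lists as short as these. In the glucocorticoid-induced list, 2 of 7 genes, the metallothioneins *Mt1* (1.78) and *Mt2* (1.53), were higher on slide 2 without overlap. The other 5 genes overlapped, and the median difference of the list was 0.17. The summed red signal of that list was 66502 to 137917 on slide 1 and 178805 to 340403 on slide 2, with no overlap. Such a sum follows its brightest probes and does not describe the list as a whole. Of 9 acinar enzymes *Cela2a* (1.11) was higher and 8 overlapped, with summed signals of 2198423 to 2761570 and 2433329 to 3889642. Of 7 islet genes *Ins2* (1.495) was higher and 6 overlapped, with sums of 52663 to 208271 and 175048 to 310463. Of 6 adipocyte genes *Fabp4* (0.45) was higher, with sums of 8715 to 17982 and 9474 to 18099. None of 11 leukocyte markers and none of 6 immediate early genes separated the slides, with leukocyte sums of 6977 to 12286 and 4785 to 19352 and immediate early sums of 4985 to 5970 and 3983 to 5816. Of the leukocyte markers *Cd2*, *Cd79a* and *Itgam* had red signal well above background on no array. Of 7 liver genes *Fgb* (1.41) was higher, 4 (*Apoa1*, *Apob*, *Fgb* and *Fgg*) had red signal well above background on no array, and the sums were 774 to 1063 and 703 to 1881. The part of these genes in the slide differences of the clock genes was not tested.

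The genes whose values over the 8 mice were most like those of a clock gene were taken by the smallest root mean square difference between log2 ratio profiles, each centered on its own mean. No probe of *Arntl*, *Clock*, *Npas2* or *Cry1* had red signal well above background on all 8 arrays, so the rule gave no reference for them. For the rest it gave *Per1*, and among 7388 such probes the nearest were *Slc17a5* (0.23), *Smc4* (0.25), *Vcam1* (0.26), *Vasp* (0.28) and *Cabin1* (0.28). A further pair of references was chosen after the values were seen. Nearest to *Nr1d2* was *Tef* (0.31), then *Pycard* (0.33), *Slc30a2* (0.33) and *4933421I07Rik* (0.38). Nearest to *Arntl*, among 19892 probes with green well above background on all 8 arrays, were *Pdia4* (0.53), *Acot1* (0.58), *Nfil3* (0.59), *Hsp90aa1* (0.64) and *Creld2* (0.69), of which *Pdia4*, *Hsp90aa1* and *Creld2* encode protein folding factors. For *Nr1d2* and *Arntl* these distances mainly express the step between the slides, which all of those genes show with differences of 1.76 to 2.59 and of -3.22 to -2.30.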

How the data were processed

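RNA from the pancreas of 8 NOD mice was hybridized with 1 NOD.B10 pool on Agilent 4x44K two-color arrays. The authors used Agilent Feature Extraction (10.7.3.1, build mm8). For every spot the authors deposited the log10 of red over green signal, the intensity of each dye before and after processing (background subtraction, detrending and dye normalization), and flags. Here log10 ratios were converted to log2 and spots of one probe averaged. The test, limma (3.58.1, R 4.3.3), took probes with a symbol whose processed red reached 25 on 4 or more of the 8 arrays, and was tried on simulated data first. Tables and figures used Python 3.11.15. The brightest probe of a gene is the one with the largest log2 processed signal, averaged over arrays and dyes. Named beyond the members were up to 4 genes per clock list that were called or did not overlap between slides, and the 5 nearest patterns per reference. Some genes of the lists and patterns are not reported here. The members and lists were chosen with earlier results of these data known. P-values measure the spread between the 8 mice only, and the number of arrays limits the precision.

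Alternatives were background-subtracted signals with the SD of negative controls as their floor, centered on the array median ratio (median-centered signals), normexp (offset 50) with loess, array-median centering, the ratio of processed signals, irregular spots left out, each mouse left out, other filters and thresholds, slide as a covariate, red signal alone, and arrays with a poorly rated grid left out.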

Additional observations from a re-analysis of the deposited data

Results flagged for a closer look

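Among the 18 clock probes, the log2 ratio of 1 of the 8 mice stood apart from the rest, by Dixon's criterion for 8 values, at 2 probes. Chance gives about 1 in 20. Both were mouse 5, at *Clock* probe A_52_P161365 (-1.53) and at *Npas2* (1.64), and at both probes red signal was well above background on no array. Of the 8 ratios, 6 at the *Clock* probe and 3 at *Npas2* are exact zeros set by the software, so the criterion and its chance rate do not hold there. At 2 probes the mice of the slides lay on opposite sides of the pool, with all 4 of slide 1 below it and all 4 of slide 2 above it: *Nr1d1* at A_51_P223776, with a difference of 3.80, and *Cry2* at A_52_P248378, with 1.61. Neither difference was tested, since the genes were chosen on this contrast.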

How the results depend on the processing

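No paired analysis was possible because the series has 1 group of mice, each against the same pool. Of the 16 clock probes tested against the pool, 0 were called. With median-centered signals 1 was called (*Arntl*), beside 25.2% of all tested probes. At a fold of 1.5 it was 1 (*Nr1d1*), beside 3.95%. With slide as a covariate it was 2 (*Arntl* and *Nr1d2*), beside 2%. Leaving out each mouse in turn gave 0 calls throughout, beside 0.865% to 1.2% of all tested probes. Over all tested probes, median-centered signals moved the median log2 ratio from -0.09 to 0.07 and turned 87 calls higher and 397 lower into 5780 and 1307. The 3 probes lower on slide 2 without overlap, beside 5.34% of all probes, became 0 with normexp and loess, beside 5.18%. Among probes with red well above background on all 8 arrays they became 0 of 2, beside 11.6%. With a mouse left out they ranged from 3 to 5, beside 6.32% to 7.71%. Without the 3 arrays with a poorly rated grid, 1 mouse is left on slide 2, and a count without overlap says little. The 4 higher probes became 1 of 2 among probes well above background on all 8 arrays, beside 13.4%. Of the 10 genes, 5 had a slide difference of at least 1 on the log2 scale at their brightest probe, beside 6.05% of all symbols. The number was 0 with normexp and loess. It was 1 among probes well above background on all 8 arrays, where 1.45% of all such probes differed as much. The genes were chosen on this contrast. The normexp offset of 50 exceeds the background-subtracted red signal of *Arntl* on every array (0.537 to 45.8), and under it the differences were -0.40 for *Arntl* and 0.53 for *Nr1d2*. Over the 12 single probes followed, 160 of 182 alternative values moved by less than the spread within slides and 21 moved further. Of the 7 probes that separated the slides, the weaker *Cry2* probe changed sign, from -1.25 to 0.031 with normexp and loess (-0.08 with median-centered signals), and the other 6 kept their sign but shrank with normexp and loess, to 0.048 for *Per3*, 0.50 for *Nr1d1*, 0.56 for *Cry2* and -0.35 for *Clock*, while *Cry1*, *Npas2*, *Per2* and the brightest *Nr1d1* probe, which overlapped, changed sign under some settings. Weak red signal limits *Npas2*, *Cry1*, *Per2* and *Per3* most.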
